A study of Mus musculus with 6 samples.

Results

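The genes that move chloride, sodium and water across the airway lining were followed in epithelial cells sorted from mouse lungs at E16.5 (embryonic day). The 9 genes, Cftr, Ano1, Slc26a9, Slc12a2, Scnn1a, Scnn1b, Scnn1g, Atp1b1 and Aqp5, were chosen by symbol for their known transport roles, with earlier results of these data known, and all 9 were found among the 27179 genes of the count table. Grhl2_cKO samples were Shh-Cre;Grhl2f/-, with 1 floxed and 1 null allele of the epithelial transcription factor gene Grhl2 (n = 3, replicates 1, 5 and 10), and control samples were Shh-Cre;Grhl2f/+, with 1 floxed and 1 intact allele (n = 3, replicates 1, 3 and 7). The Cre recombinase, driven from the Sonic hedgehog gene, was present in both genotypes, so control cells in which it acted keep 1 Grhl2 copy. Among the samples of a genotype, 2 were male and 1 was female. EpCAM, an epithelial surface protein, was the marker for the flow sort. The comparison asked whether genes of secretion and of absorption differ when Grhl2 is deleted.

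Before birth the lung lumen is filled with fluid that its epithelium secretes. In the textbook scheme, the sodium pump in the basolateral membrane sets up a sodium gradient, a sodium, potassium and chloride cotransporter uses it to load chloride into the cell, and apical channels let chloride out, with sodium and water following. Around birth the direction turns to absorption, in which sodium enters through the apical epithelial sodium channel and is pumped out across the basolateral side.

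The libraries held 13472216 to 17228762 counts each. Levels are given as CPM, the count divided by the library size after scaling between samples. Grhl2 stood at 105.3, 109.2 and 115.3 CPM in Grhl2_cKO replicates 1, 5 and 10, and at 149.2, 147.9 and 145.98 CPM in control replicates 1, 3 and 7, a fall to 74.4% of control (edgeR adjusted p = 0.0026). Reads from exons outside the floxed part can remain in this sum over the gene. Epithelial markers were present, with Epcam at 335.1 to 402.7 CPM in Grhl2_cKO and 501.4 to 558.7 CPM in controls. The 5 epithelial markers summed to 1977 to 2115 CPM in Grhl2_cKO and 2327 to 2589 CPM in controls. Krt8, Krt18 and Cdh1 were at 71.8%, 77.2% and 83.0% of control and Nkx2-1 at 103.0%. In edgeR none of these 4 was called (adjusted p = 0.0832, 0.317, 0.21 and 0.968). Of the 5 markers, 4 had an unadjusted edgeR p under 0.05. Any part of this in the changes of Cftr and Atp1b1 below was not tested. Markers of other lineages were present too. The 7 smooth muscle and mesenchyme markers summed to 845.4 to 1697 CPM in Grhl2_cKO and 869.1 to 1450 CPM in controls. Of these, the collagen gene Col3a1 had 640.0, 301.6 and 357.9 CPM in Grhl2_cKO replicates 1, 5 and 10, above Epcam only in replicate 1. In controls Col3a1 averaged 433.1 CPM, below Epcam in each library. CPM takes no account of gene length. The 4 endothelial markers summed to 120.4 to 130.7 CPM in Grhl2_cKO and 93.1 to 146.8 CPM in controls, and the 4 leukocyte markers to at most 14.6 CPM in any library. Epcam, the gene of the sort marker, was called lower at 67.6% of control (edgeR adjusted p = 0.00412), and any effect of that on which cells were sorted was not tested. Whether a sample is 1 embryo or a pool is not given, so the p-values speak of spread among these libraries, which may be technical. In bulk RNA, fewer cells of a type and less RNA per cell cannot be told apart.

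Per length of gene model, as RPKM (CPM per kilobase of gene model), Atp1b1 had the highest and Aqp5 the lowest mean of the 9 genes in both genotypes, although Slc12a2 exceeded Atp1b1 in Grhl2_cKO replicate 10. In Grhl2_cKO the mean RPKM levels (± SD, n = 3) were 97.0 ± 11.5 for Atp1b1, 92.1 ± 1.63 for Slc12a2, 76.8 ± 4.84 for Ano1, 41.1 ± 3.33 for Slc26a9 and 13.9 ± 1.11 for Cftr. In controls they were 160.5 ± 0.98 for Atp1b1, 90.99 ± 0.86 for Slc12a2, 63.1 ± 8.40 for Ano1, 41.5 ± 4.40 for Slc26a9 and 21.7 ± 0.51 for Cftr. The sodium channel subunits lay lower in RPKM, at 8.69 ± 1.29 for Scnn1a, 5.74 ± 0.62 for Scnn1b and 9.96 ± 1.45 for Scnn1g in Grhl2_cKO, and at 11.4 ± 2.89 for Scnn1a, 5.73 ± 0.95 for Scnn1b and 10.6 ± 1.44 for Scnn1g in controls. Aqp5 had 1.31 ± 0.34 RPKM in Grhl2_cKO and 1.51 ± 0.90 RPKM in controls. Neighbours in this order whose libraries overlapped were Atp1b1 with Slc12a2 in Grhl2_cKO, and Scnn1a with Scnn1g in both genotypes. The sorted cells at this age thus held more transcript per length of each secretion gene than of any sodium channel subunit, in each of the 6 libraries.

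**Figure D1:**
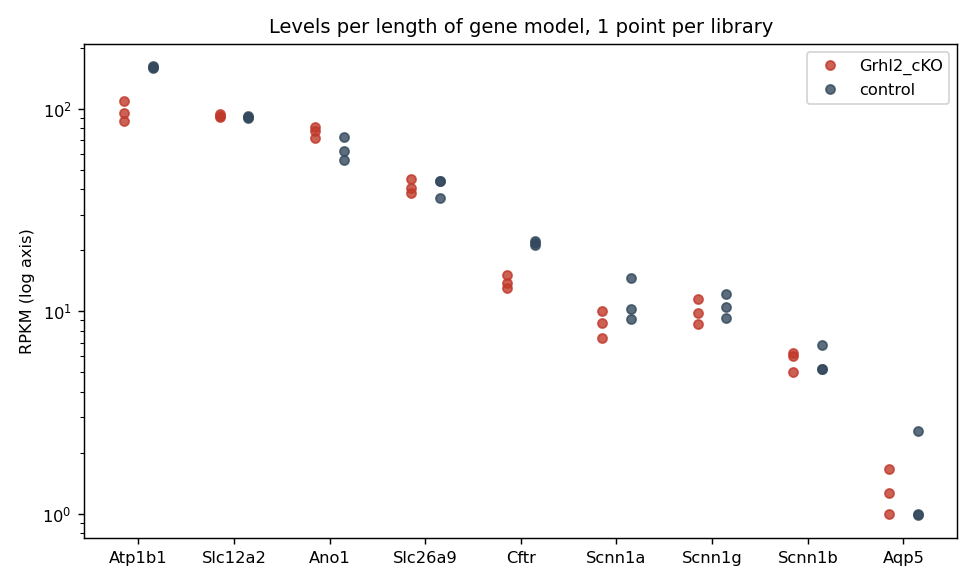
Level per length of gene model (RPKM, log axis) of the 9 genes, with 1 point per library, Grhl2_cKO left of control, genes ordered by the control mean. Atp1b1 averaged 97.0 RPKM in Grhl2_cKO and 160.5 RPKM in controls, and the 3 sodium channel subunits lay below Cftr in both genotypes.

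Of the 9 genes, all of which were tested, 2 passed the threshold (adjusted p under 0.05 over all genes, termed called here), both lower in Grhl2_cKO: the chloride channel gene Cftr and the sodium pump gene Atp1b1. Over the 14842 genes tested, 3.62% were called, 2.39% lower and 1.23% higher in Grhl2_cKO. The same 2 members were the ones whose CPM did not overlap between the groups, and non-overlap was found for 18.1% of all genes tested, so 2 of 9 is close to that background. The median log2 fold change was 0.00 over the 4 secretion genes, -0.09 over the 3 sodium channel genes and 0.00 over all genes tested.

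Cftr encodes the cyclic AMP-regulated chloride and bicarbonate channel of the apical membrane, the gene mutated in cystic fibrosis (Entrez 12638, chromosome 6, 18170687 to 18322770, mm10). It stood at 95.5, 86.6 and 81.7 CPM in Grhl2_cKO replicates 1, 5 and 10, and at 133.2, 137.5 and 139.5 CPM in control replicates 1, 3 and 7. All 3 Grhl2_cKO libraries lay below all 3 controls, and the controls lay close together. Cftr RNA thus stood at 64.3% of control (95% interval 58.0% to 71.3%), a log2 fold change of -0.64 ± 0.07 (SE, n = 3 in each genotype) with an edgeR adjusted p of 0.000741. Cftr was called under each of the 16 alternative settings, with adjusted p from 4.2e-12 to 0.00625. An exon of the annotated antisense gene Gm15592 covers 129 bases of Cftr exons. Reads of the 2 strands there may not be separable, since no source used here gives the strand setting of the counting.

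Atp1b1 encodes the beta 1 subunit of the Na,K-ATPase, which the pump needs to reach the basolateral membrane (Entrez 11931, chromosome 1, 164437099 to 164458355). It stood at 265.0, 229.8 and 209.96 CPM in Grhl2_cKO replicates 1, 5 and 10, and at 388.9, 386.3 and 391.1 CPM in control replicates 1, 3 and 7. The groups did not overlap, and the spread was wider among Grhl2_cKO libraries (11.9% of the mean) than among controls (0.61%). Atp1b1 RNA stood at 60.4% of control (95% interval 53.3% to 68.4%), a log2 fold change of -0.73 ± 0.08 (SE, n = 3 in each genotype) with an edgeR adjusted p of 0.00108. It was called under each of the 16 alternative settings, with adjusted p from 1.44e-15 to 0.00724. The opposite-strand gene Nme7 shares 192 exonic bases with it and was itself not called, at 33.5 ± 3.71 CPM in Grhl2_cKO and 39.3 ± 0.95 CPM in controls (SD; edgeR adjusted p = 0.266).

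Because Cftr and Atp1b1 fell together, the 250 bases before their annotated starts are shown, read 5′ to 3′ on the strand of each gene from RefSeq on GRCm38.p6, the assembly of mm10. Cftr is on the plus strand, chr6:18170437-18170686, and Atp1b1 on the minus strand, chr1:164458356-164458605. Capitals mark matches to GGGCGG (the GC box) or CCAAT on either strand.
Cftr: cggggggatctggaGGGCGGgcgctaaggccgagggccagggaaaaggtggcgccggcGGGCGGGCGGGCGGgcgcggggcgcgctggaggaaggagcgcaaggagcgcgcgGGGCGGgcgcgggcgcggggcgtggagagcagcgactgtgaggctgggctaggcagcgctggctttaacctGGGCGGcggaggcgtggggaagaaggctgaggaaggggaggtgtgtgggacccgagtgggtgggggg
Atp1b1: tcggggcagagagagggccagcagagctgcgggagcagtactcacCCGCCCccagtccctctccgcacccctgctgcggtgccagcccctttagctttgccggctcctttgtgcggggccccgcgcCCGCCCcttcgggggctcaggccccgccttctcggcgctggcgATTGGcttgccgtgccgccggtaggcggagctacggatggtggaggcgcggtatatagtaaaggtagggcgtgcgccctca
The Cftr window held 6 GC box matches, 3 of them in a row that overlap, and no CCAAT. The Atp1b1 window held 2 GC box matches, both as CCGCCC, and 1 CCAAT, read as ATTGG 81 to 77 bases before the start. Over 32851 windows of the same length, 32.7% held a GC box and 33.8% a CCAAT. The bases of the Cftr window were 76.4% G or C and those of the Atp1b1 window 70.4%, against a median of 52.4% over all windows. The 8 bases AACCGGTT, the palindrome that grainyhead factors bind, was in 0.116% of windows, and the looser AACNNGTT, which includes it, was in 3.64%. Neither was found on either strand of the windows of the 7 members that have one, which says only that these letters are not in those 250 bases. The Ano1 window (chr7:144738574-144738823, minus strand) lies inside the span of the gene given below. The Scnn1g window (chr7:121734229-121734478) runs past the start of its gene at 121734420.

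**Figure D2:**
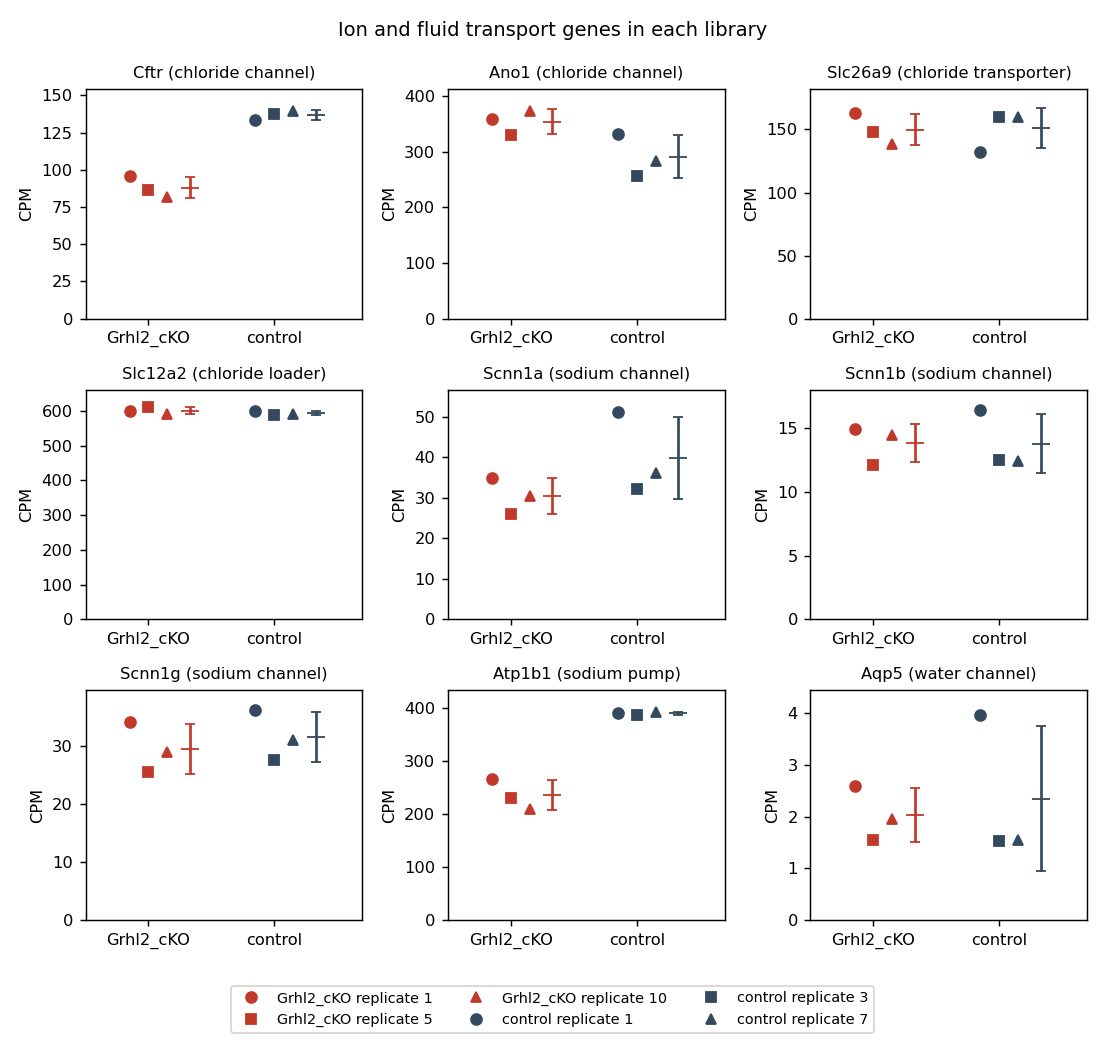
CPM of each of the 9 genes in each library, Grhl2_cKO left of control, with symbols for the replicates and the mean ± SD of 3 libraries beside them (symbol shapes do not pair libraries across genotypes). In the Cftr and Atp1b1 panels the groups do not overlap, and in the other 7 they do.

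The other chloride genes did not follow Cftr. Ano1, a calcium-activated chloride channel (Entrez 101772, chromosome 7, 144588549 to 144752026), stood at 358.6, 329.4 and 373.1 CPM in Grhl2_cKO replicates 1, 5 and 10, and at 332.2, 255.8 and 283.7 CPM in control replicates 1, 3 and 7. The ranges overlapped only through control replicate 1, the highest control. The log2 fold change was 0.28 ± 0.09 (SE; edgeR adjusted p = 0.166, from 0.0196 to 0.481 over 16 alternatives), not called. Without control replicate 1 it was called higher, at 0.40 on the log2 scale (edgeR adjusted p = 0.0196), as it was with DESeq2 (adjusted p = 0.0384). Ano1 is also known from airway smooth muscle, and 7 smooth muscle and mesenchyme markers summed to 1697, 845.4 and 1011 CPM in Grhl2_cKO replicates 1, 5 and 10 and to 1450, 1173 and 869.1 CPM in control replicates 1, 3 and 7. None of those markers was called in edgeR, DESeq2 or limma-voom or had an unadjusted edgeR p under 0.05, and their part in the Ano1 level was not tested.

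Slc26a9 encodes an apical chloride transporter that interacts with the CFTR protein (Entrez 320718, chromosome 1, 131744022 to 131771504). It had 162.8, 147.8 and 138.8 CPM in Grhl2_cKO replicates 1, 5 and 10, against 132.5, 160.2 and 160.2 CPM in control replicates 1, 3 and 7. The groups covered the same range, with control replicate 1 the lowest library. Its log2 fold change was -0.01 (95% interval -0.20 to 0.18; edgeR adjusted p = 0.99).

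Slc12a2 encodes NKCC1, the basolateral cotransporter that loads chloride for secretion (Entrez 20496, chromosome 18, 57878512 to 57946821). It had 599.998, 611.5 and 590.3 CPM in Grhl2_cKO replicates 1, 5 and 10 and 599.6, 589.1 and 591.1 CPM in control replicates 1, 3 and 7. The groups overlapped, and the SD was 1.77% of the mean in Grhl2_cKO and 0.94% in controls. Its log2 fold change of 0.02 had a 95% interval of -0.11 to 0.15 (edgeR adjusted p = 0.975), which leaves room for a change to between 92.7% and 110.6% of control.

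Ratios within a library, which library scaling cannot move, set Cftr apart from the chloride genes beside it. Cftr over Ano1, in RPKM, was 0.195, 0.192 and 0.160 in Grhl2_cKO replicates 1, 5 and 10 and 0.293, 0.393 and 0.359 in control replicates 1, 3 and 7. Cftr over Slc26a9 was 0.339, 0.338 and 0.34 in the Grhl2_cKO libraries and 0.581, 0.496 and 0.503 in the controls. Cftr over Slc12a2 was 0.143 to 0.165 in Grhl2_cKO and 0.230 to 0.244 in controls. The groups did not overlap in any of these 3 ratios, which were chosen after the values were seen and were not tested. Cftr made up 9.81% to 11.0% of the summed RPKM of Cftr, Ano1 and Slc26a9 in Grhl2_cKO and 16.3% to 17.97% in controls. The summed RPKM of the 4 secretion genes was 219.7 to 229.8 in Grhl2_cKO and 211.7 to 221.6 in controls, ranges that overlap.

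**Figure D3:**
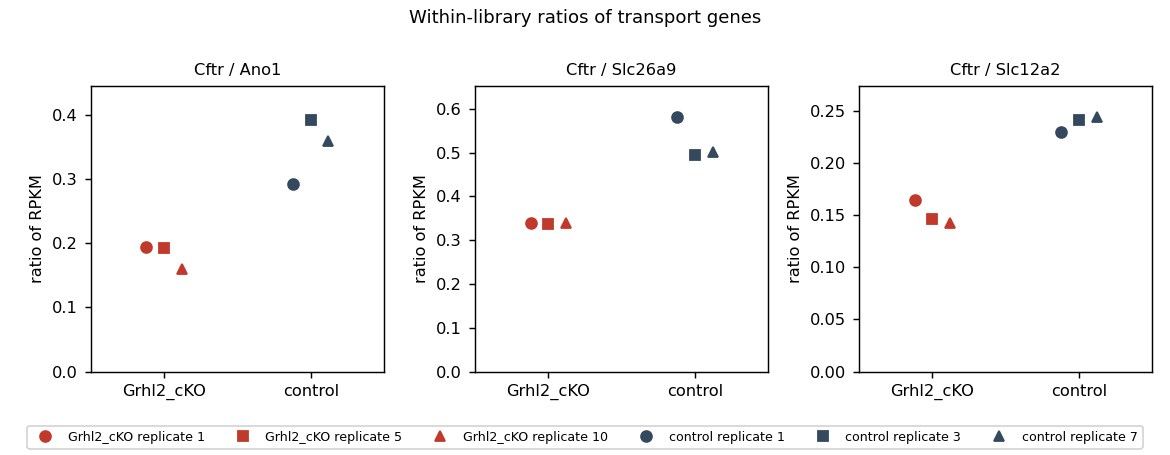
Ratio of RPKM within each library for Cftr over Ano1, Slc26a9 and Slc12a2, with 1 point per library and Grhl2_cKO left of control. All 3 ratios were lower in each Grhl2_cKO library than in any control, with Cftr over Slc26a9 at 0.338 to 0.34 in Grhl2_cKO and 0.496 to 0.581 in controls.

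On the absorptive side, none of the 3 subunits of the epithelial sodium channel was called in edgeR, DESeq2 or limma-voom, and 1 had an unadjusted edgeR p under 0.05. Scnn1a encodes the alpha subunit, without which the channel conducts little (Entrez 20276, chromosome 6, 125314271 to 125344943). It had 34.9, 25.9 and 30.5 CPM in Grhl2_cKO replicates 1, 5 and 10, against 51.2, 32.0 and 36.0 CPM in control replicates 1, 3 and 7. The groups overlapped, and control replicate 1 stood well above the other libraries. The log2 fold change was -0.38 ± 0.17 (SE; edgeR adjusted p = 0.35), and it was -0.15 without control replicate 1 (edgeR adjusted p = 0.691, the highest over its 16 alternatives, the lowest being 0.2).

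Scnn1b and Scnn1g encode the beta and gamma subunits, which raise the current through the channel, and lie on chromosome 7 (Entrez 20277, 121865038 to 121918728, and Entrez 20278, 121734420 to 121768482). Scnn1b had 14.9, 12.1 and 14.4 CPM in Grhl2_cKO replicates 1, 5 and 10 and 16.4, 12.5 and 12.5 CPM in control replicates 1, 3 and 7. Scnn1g had 34.1, 25.6 and 29.0 CPM in Grhl2_cKO replicates 1, 5 and 10 and 36.1, 27.6 and 31.0 CPM in control replicates 1, 3 and 7. For both, the groups overlapped throughout. The log2 fold changes were 0.01 for Scnn1b (95% interval -0.30 to 0.32; edgeR adjusted p = 0.995) and -0.09 for Scnn1g (-0.37 to 0.18; edgeR adjusted p = 0.893).

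Shares of subunit RNA were set side by side within each library. Scnn1a supplied 35.1% to 36.0% of the summed RPKM of the 3 subunits in Grhl2_cKO and 38.7% to 43.5% in controls, which do not overlap, and Scnn1b supplied 22.4% to 24.5% in Grhl2_cKO and 19.9% to 21.9% in controls, which do not overlap either. The Scnn1g share, 39.9% to 41.6% in Grhl2_cKO and 36.2% to 40.4% in controls, overlapped. These shares were chosen after the values were seen and were not tested. The summed RPKM of the 4 secretion genes was 8.31, 10.4 and 9.10 times that of the 3 subunits in Grhl2_cKO replicates 1, 5 and 10 and 6.59, 8.96 and 8.42 times in control replicates 1, 3 and 7. Secretion genes exceeded absorption genes in each library, and the groups overlapped in this ratio.

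Aqp5 encodes a water channel known from type 1 alveolar cells and airway glands (Entrez 11830, chromosome 15, 99591028 to 99594829). At 24 to 53 counts per library, it had 2.59, 1.54 and 1.95 CPM in Grhl2_cKO replicates 1, 5 and 10, against 3.96, 1.52 and 1.55 CPM in control replicates 1, 3 and 7. Control replicate 1 lay far above both other controls, and the 95% interval of the change ran from 49.4% to 160.3% of control (edgeR adjusted p = 0.956). The log2 fold change was -0.17 with all libraries and 0.41 without that one (edgeR adjusted p = 0.652).

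Replicate 1 was the highest library of its genotype for Scnn1a, Scnn1b, Scnn1g and Aqp5 in both genotypes. It is a female sample in Grhl2_cKO and a male sample in controls, and the sample labels do not pair them. Over all 9 genes, replicate 1 was the highest for 7 in Grhl2_cKO and for 6 in controls. It was also the highest in both genotypes for Ager, Hopx, Rtkn2 and Cav1 of the 6 type 1 cell markers, but not for Pdpn and Akap5. The 6 markers summed to 1394, 1161 and 1218 CPM in Grhl2_cKO replicates 1, 5 and 10 and 1381, 1089 and 1138 CPM in control replicates 1, 3 and 7. None of the 6 was called in edgeR, DESeq2 or limma-voom or had an unadjusted edgeR p under 0.05. Heart muscle markers summed to 195.5 CPM in Grhl2_cKO replicate 1 and to 16.9 to 36.4 CPM elsewhere. Without that library Cftr (log2 fold change -0.70, edgeR adjusted p = 0.000675) and Atp1b1 (-0.82, edgeR adjusted p = 0.000342) were still called.

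Atp1b1 made up 61.1% to 66.6% of the summed RPKM of the beta subunit genes Atp1b1, Atp1b2 and Atp1b3 in Grhl2_cKO and 73.4% to 76.5% in controls. The log2 fold change of Atp1b2 was 0.15 (edgeR adjusted p = 0.877), not called.

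A list of 13 further genes held pump subunits, the small FXYD proteins that tune the pump, and Atp12a, of a related proton pump. Of these genes 10 were tested, 2 rose and none fell. That is 20% called, against 3.62% of all genes tested. The groups did not overlap for 4 of the 10, or 40%, against 18.1% of all genes. Fxyd1, which encodes phospholemman, rose to 7.16, 5.59 and 5.86 CPM in Grhl2_cKO replicates 1, 5 and 10, against 3.96, 3.04 and 2.58 CPM in control replicates 1, 3 and 7 (fold 1.95; edgeR adjusted p = 0.024). Fxyd6 rose to 20.9, 20.4 and 21.3 CPM in Grhl2_cKO, against 15.5, 12.1 and 11.7 CPM in controls (fold 1.60; edgeR adjusted p = 0.0128). Each Grhl2_cKO library lay above each control for both genes. The Fxyd1 call was lost without control replicate 3 or 7 or any 1 Grhl2_cKO library (edgeR adjusted p = 0.0534 to 0.104), and the Fxyd6 call without control replicate 3 (0.0606) or Grhl2_cKO replicate 10 (0.0539). Fxyd3 was not called (log2 fold change -0.07, edgeR adjusted p = 0.94), and it shares 1882 exonic bases with the opposite-strand gene Lgi4, so its counts are uncertain.

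**Figure D4:**
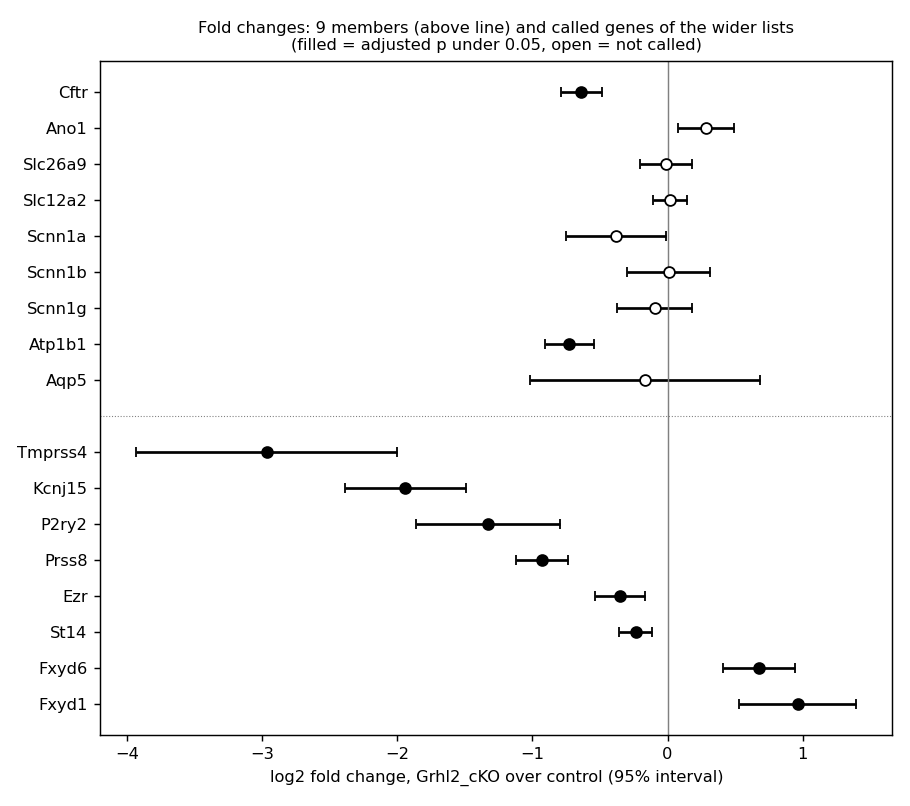
Log2 fold change of Grhl2_cKO over control with its 95% interval for the 9 genes (above the dotted line) and for the 8 called genes of the wider transport lists (below it), filled where adjusted p was under 0.05. Cftr at -0.64 and Atp1b1 at -0.73 are the filled points above the line, and Fxyd6 and Fxyd1 are the ones to the right of 0.

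The wider lists of transport genes held 84 further genes, of which 65 were tested, 6 fell and 2 rose, 12.3% called against 3.62% of all genes. Their median log2 fold change was -0.03. The number called was 4 without control replicate 3, control replicate 7 or Grhl2_cKO replicate 10, and 5 without Grhl2_cKO replicate 1. The groups did not overlap for 25 of the 65, or 38.5%, against 18.1% of all genes. The lists were chosen with earlier results of these data known, so these shares are a description and not a test of enrichment.

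Regulators of the sodium channel held 3 of these calls, all lower and all for membrane serine protease genes, with 15 of 16 tested, none higher and a median log2 fold change of -0.13. That is 20% called, against 3.62% of all genes tested. The groups did not overlap for 6 of the 15, or 40%, against 18.1% of all genes. Prss8 encodes prostasin, a protease that activates the sodium channel by releasing a stretch of its gamma subunit. It fell to 94.0, 73.3 and 77.5 CPM in Grhl2_cKO replicates 1, 5 and 10, against 160.5, 150.5 and 155.5 CPM in control replicates 1, 3 and 7 (52.5% of control; edgeR adjusted p = 0.000421; called in all 16 alternatives). Tmprss4 had 4, 1 and 3 counts in the Grhl2_cKO libraries, against 21, 20 and 19 counts in the controls (edgeR adjusted p = 0.00466; called in all 16 alternatives). Each Grhl2_cKO count was under the filter's minimum count of 10. Tmprss4 thus entered the main test only through the controls, where it is high, and could hardly come out other than lower. The shares called and not overlapping, here and over all the wider lists, include it. St14, which encodes matriptase, stood at 84.9% of control at the edge of the threshold (edgeR adjusted p = 0.0479), and the call was lost in 10 of 16 alternatives, among them each of the 6 fits without 1 library (0.056 to 0.189). Among the others of the list, Furin, a protease gene that acts in the Golgi, Tmprss2 and the glucocorticoid receptor gene Nr3c1 were not called, at 109.1%, 86.9% and 91.6% of control (edgeR adjusted p = 0.36, 0.194 and 0.446). Prss8 shares 122 exonic bases with the opposite-strand gene Kat8 and Tmprss4 412 with Gm17099, so part of their counts is uncertain. None of the 3 subunit genes was called beside these.

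Among potassium channels of transporting epithelia, which hold the voltage that drives chloride out, 1 of 7 tested genes fell and none rose, with a median log2 fold change of -0.18. That is 14.3% called, against 3.62% of all genes tested. The groups did not overlap for 4 of the 7, or 57.1%, against 18.1% of all genes. Kcnj15, an inward rectifier, fell to 7.40, 4.30 and 3.97 CPM in Grhl2_cKO replicates 1, 5 and 10, against 20.9, 18.9 and 20.5 CPM in control replicates 1, 3 and 7 (26.0% of control; edgeR adjusted p = 0.00072; called in all 16 alternatives), and it shares 333 exonic bases with the opposite-strand gene Gm49643. Kcne2, an accessory subunit gene, was at 170.7% of control and not called (edgeR adjusted p = 0.0564), though it was in 5 of 16 alternatives (0.0245 to 0.191). Kcnk1 and Kcnk6, of the tandem-pore family, were not called, at 86.4% and 74.9% of control (edgeR adjusted p = 0.3 and 0.25).

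Of the receptors and scaffolds that act on Cftr and on secretion, 2 of 14 tested genes fell and none rose, with a median log2 fold change of -0.02. That is 14.3% called, against 3.62% of all genes tested. The groups did not overlap for 5 of the 14, or 35.7%, against 18.1% of all genes. P2ry2 encodes the receptor through which extracellular ATP raises calcium and chloride secretion. It fell to 1.20, 1.48 and 0.95 CPM in Grhl2_cKO replicates 1, 5 and 10, against 3.29, 2.62 and 3.23 CPM in control replicates 1, 3 and 7 (39.8% of control; edgeR adjusted p = 0.0147), a call lost without control replicate 7 (0.055) or Grhl2_cKO replicate 10 (0.0674). Ezr encodes ezrin, which ties apical membrane proteins to actin, and was called lower, at 78.2% of control (edgeR adjusted p = 0.0472), which was lost in 9 of 16 alternatives, among them each fit without 1 library other than Grhl2_cKO replicate 10 (0.0746 to 0.186). The scaffold gene Slc9a3r1, which encodes NHERF1, was at -0.26 on the log2 scale (edgeR adjusted p = 0.0568) and Slc9a3r2 at 0.22 (edgeR adjusted p = 0.299).

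The other anion channels, exchangers and cotransporters held no call among 16 tested genes in edgeR, DESeq2 or limma-voom (4 at an unadjusted edgeR p under 0.05), with a median log2 fold change of 0.06. The groups did not overlap for 6 of the 16, or 37.5%, against 18.1% of all genes. Ano6, an Ano1 relative that scrambles membrane lipids, was at 112.5% of control (edgeR adjusted p = 0.123) and the bicarbonate cotransporter gene Slc4a4 at 88.3% (edgeR adjusted p = 0.123). Of 9 further aquaporins 3 were tested, and none was called in edgeR, DESeq2 or limma-voom or had an unadjusted edgeR p under 0.05. Aqp1 had 108.3, 73.98 and 108.9 CPM in Grhl2_cKO replicates 1, 5 and 10 and 122.2, 59.4 and 54.3 CPM in control replicates 1, 3 and 7 (edgeR adjusted p = 0.785), and it was called higher without control replicate 1 (edgeR adjusted p = 0.0152). Aqp4 was at 106.5% of control (edgeR adjusted p = 0.919).

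Markers of airway cell types moved beside Cftr and Atp1b1. Of 8 ciliated cell markers 6 were called lower, against 2.39% of all genes tested, and their sum was 80.6, 57.3 and 53.5 CPM in Grhl2_cKO replicates 1, 5 and 10 and 161.0, 122.2 and 123.3 CPM in control replicates 1, 3 and 7. Of 7 secretory cell markers 3 were called lower, against the same 2.39%, with sums of 216.6, 115.6 and 117.8 CPM in Grhl2_cKO and 349.7, 296.5 and 256.3 CPM in controls. Both sums were lower in each Grhl2_cKO library than in any control, and their part in the changes of Cftr and Atp1b1 was not tested. The pulmonary ionocyte, a rare airway cell rich in Cftr in the adult, had its defining markers at or near 0. Foxi1 had 0 counts in each of the 6 libraries, where 3 counts, the limit that a count of 0 allows, are 0.178 to 0.224 CPM, and Ascl3 had at most 1 count. Of the other 3 ionocyte markers, Atp6v1c2 was called lower, against 2.39% of all genes tested, and averaged 13.8 CPM in Grhl2_cKO and 22.9 CPM in controls. Atp6v1b1 was at 39.3% of control and not called (edgeR adjusted p = 0.0587), and Atp6v0d2 had at most 4 counts. The 5 together summed to 12.6 to 19.0 CPM in Grhl2_cKO and 22.9 to 27.7 CPM in controls, most of it from Atp6v1c2. None of the 6 type 2 markers was called in edgeR (4 at an unadjusted p under 0.05, 2 called by DESeq2), and none of the 4 distal tip markers (1 at an unadjusted p under 0.05, 1 called by DESeq2). Of 5 neuroendocrine markers 2 were called higher, against 1.23% of all genes tested, with sums of 17.0 to 20.96 CPM in Grhl2_cKO and 9.42 to 13.7 CPM in controls.

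The genes whose log2 CPM over the 6 libraries was most like that of Cftr were Rbbp8nl, Mlph and Nectin4, with Pearson's r of 0.9993, 0.9977 and 0.9973. For Atp1b1 they were Mlph, Nectin4 and Kcnj15, at 0.999, 0.9972 and 0.9968. With 3 libraries in each of 2 genotypes, such r mostly reflects the step between the genotypes, and no p is given. The step differed in size, to 13.8% of control for Rbbp8nl, 20.3% for Mlph, 23.2% for Nectin4 and 26.0% for Kcnj15, against 64.3% for Cftr and 60.4% for Atp1b1.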

How the data were processed

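The deposited table held raw counts for each Entrez gene beside a gene length. Per the submitters' processing notes, bcl2fastq 2.17.1.14, featureCounts, edgeR 3.16.5, limma 3.30.12 and mm10 were used; the sources used here name no aligner and no strand setting. Symbols and coordinates came from a RefSeq table (25275 of 27179 identifiers matched, 92.99%), and overlaps from GENCODE M21.

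Counts of all 6 samples, grouped by genotype in the sample descriptions, were fitted with edgeR 4.0.16 (R 4.3.3; TMM, filterByExpr with minimum count 10 and total 15, 14842 genes tested, glmQLFit with legacy set to FALSE, glmQLFTest, Benjamini-Hochberg adjustment over all genes, threshold 0.05). SE was taken as the absolute log2 fold change divided by the root of the F statistic. CPM uses TMM-scaled library sizes, and RPKM divides it by the deposited length. Likeness used log2(CPM + 0.5). A count of 3 equals 0.178 to 0.224 CPM, a limit for counting error alone. No replicates were the same library (chi-square per degree of freedom 7.72 to 12.9).

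The 9 genes and all lists were chosen with earlier results of these data known. Named genes were the members, Grhl2, Epcam, called genes of each list with up to 3 others of smallest p and a mean count of 50 or more, the 3 genes most like each called member, and markers; some genes the rule names are not reported here. Alternatives changed scaling, filter, tool (DESeq2 1.42.0, limma-voom 3.58.1, robust quasi-likelihood), sex as a covariate and each library.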

Additional observations from a re-analysis of the deposited data

How the results depend on the processing

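Over 16 alternatives, 2 or 3 of the 9 genes were called, and Cftr and Atp1b1 were called in each. The legacy quasi-likelihood fit among them was chosen after seeing the data. Without 1 library, the genes called over the whole table numbered 249 to 504, against 537, and those of the wider transport lists 4 to 8, against 8; the cause was not tested beyond the smaller number of samples. The median log2 fold change stayed between -0.03 and 0.04 for the secretion genes and between -0.21 and 0.02 for the sodium channel genes. Log2 fold changes that turned sign, none of them called under any alternative, ranged without 1 library from -0.088 to 0.044 for Slc26a9 (0.0033 with upper-quartile factors), -0.059 to 0.16 for Scnn1b, -0.21 to 0.021 for Scnn1g, -0.41 to 0.41 for Aqp5, -0.027 to 0.30 for Atp1b2, -0.14 to 0.041 for Fxyd3 and -0.016 to 0.24 for Aqp4. No paired analysis was possible because the genotypes share only replicate number 1. Aqp5 had 24 to 53 counts per library, with an SD of 59.7% of the control mean.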
